A study of Mus musculus with 6 samples.

Results

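The genes described here encode the enzymes that make and recycle nucleotides. They were taken from a fixed list of 37 genes by their symbol in the platform annotation, and where a gene had several probe sets, the one brightest on average on the 6 arrays was used. Of the 37, 36 were measured among 18193 named genes, and the remaining one, Impdh2, was not analysed here. The 36 comprised 2 genes of phosphoribosyl pyrophosphate (PRPP) supply, 9 of purine synthesis, 5 of pyrimidine synthesis, 4 nucleotide kinases, 5 of deoxynucleotide synthesis, 9 of salvage and 2 of folate carbon supply.

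Total RNA of Ba/F3 cells was measured on 1-colour Affymetrix arrays. Ba/F3 is an interleukin-3-dependent mouse line of BALB/c background, grown in all groups with supernatant of WEHI-3 cells. All cells carried the PAX5-KIDINS220 fusion (P-K220) in a Tet-on retroviral system, in which doxycycline switches the fusion on. The Dox(+) group of 3 arrays received 500 ng/mL doxycycline for 24 h, and the Dox(-) group of 3 arrays received none. The array codes in the titles fall into a set EA20, with 2 Dox(+) and 2 Dox(-) arrays, and a set EA15, with 1 array of each group. The labels do not say what the codes mark, or whether samples of a group came from separate cultures, so the p-values measure only how far these arrays scatter, and that scatter may be technical. In set EA20 the codes of the Dox(+) arrays precede those of the Dox(-) arrays, so a difference that follows code order cannot be told apart from treatment. No doxycycline-treated cells without the fusion were analysed here, so effects of the drug and of the fusion cannot be told apart.

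Across the arrays, the 3'/5' signal ratio of the control probe sets lay between 0.637 and 0.688 for Gapdh and between 1.17 and 1.24 for Actb, and the Dox(+) and Dox(-) ranges of each ratio overlapped. The Pax5 probe set 1421765_at read 94.2 to 119 in Dox(+) and 3.76 to 20.3 in Dox(-) arrays, and a second one, 1454401_at, read 48.1 to 133 in Dox(+) and 23.9 to 92.0 in Dox(-) arrays. The brightest Kidins220 probe set read 2546 to 4438 in Dox(+) and 2289 to 4154 in Dox(-) arrays. Whether these probe sets read the part of each gene that the fusion holds is not known here. Of the marker genes of the line, the interleukin-3 receptor subunit genes Csf2rb and Il3ra and the leukocyte gene Ptprc were bright or clearly measured, and Kit was dim at 4.40 to 68.1. The 3 T cell and 3 fibroblast markers measured read at most 110, and 5 of the 6 B-lineage markers at most 118, while Cd79b read 467 to 777. Of the 4 monocyte and macrophage markers, Adgre1 read 712 to 1166 and Lyz2, Csf1r and Itgam at most 406. The part of these genes in the results below was not tested.

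A cell builds purine rings step by step on PRPP until inosine monophosphate (IMP) is reached, and IMP is then turned into adenine or guanine nucleotides. Pyrimidine rings are made first and joined to PRPP afterwards, giving UMP and from it CTP. Ribonucleotide reductase converts ribonucleotides to the deoxy forms used in DNA, and salvage enzymes return free bases and nucleosides to the nucleotide pool. Dividing blood cells draw on both routes, and MYC and E2F factors are known activators of many of these genes.

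Promoter windows, from 250 bases before to 50 after the transcription start, were taken from RefSeq (GRCm38.p6) and matched 34 of the 36 genes by symbol. They are shown for Rrm2, the only gene of the group to pass the test in set EA20, for Cad, which had the smallest p over both sets, and for Atic, which carries an E-box next to its start. Capitals mark CACGTG (the E-box that MYC and its partners bind) and CCAAT, searched on both strands together with the E2F sequences TTTCCCGC, TTTCGCGC, TTTGCCGC and TTTGGCGC and the palindromic NRF1 sequence. The windows lie at chr12:24708004-24708303, plus strand, at chr5:31054530-31054829, plus strand, and at chr1:71556906-71557205, plus strand.
Rrm2: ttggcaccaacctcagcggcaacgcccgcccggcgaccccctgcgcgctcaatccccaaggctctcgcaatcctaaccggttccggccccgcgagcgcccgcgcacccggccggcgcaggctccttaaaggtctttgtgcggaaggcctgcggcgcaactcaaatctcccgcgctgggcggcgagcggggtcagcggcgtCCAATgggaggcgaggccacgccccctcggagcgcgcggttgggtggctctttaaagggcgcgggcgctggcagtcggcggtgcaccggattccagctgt
Cad: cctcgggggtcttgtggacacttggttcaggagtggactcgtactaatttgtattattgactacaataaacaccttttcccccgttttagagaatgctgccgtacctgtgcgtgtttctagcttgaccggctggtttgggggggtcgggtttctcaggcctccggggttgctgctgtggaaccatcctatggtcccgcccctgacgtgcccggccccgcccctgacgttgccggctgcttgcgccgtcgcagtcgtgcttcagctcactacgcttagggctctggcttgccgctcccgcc
Atic: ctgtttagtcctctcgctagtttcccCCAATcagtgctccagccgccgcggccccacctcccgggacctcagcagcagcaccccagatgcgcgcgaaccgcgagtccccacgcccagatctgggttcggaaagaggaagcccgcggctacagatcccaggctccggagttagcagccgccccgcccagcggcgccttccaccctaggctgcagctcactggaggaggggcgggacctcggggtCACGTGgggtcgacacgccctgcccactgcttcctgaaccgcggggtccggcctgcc
The Rrm2 window held CCAAT at position -50 from the transcription start, and the Atic window held CACGTG at -7 and CCAAT at -224. The Cad window held none of these letters. CACGTG was present for 5 of the 34 genes (Atic, Dtymk, Nme1, Paics and Tyms), 14.7%, against 8.09% of 27025 genes with a window. CCAAT was present for 15 of 34, 44.1%, against 41.1% of all. The E2F sequences were present for Ppat and Prps2, 5.88% against 2.61%, and the NRF1 sequence for Ctps and Uck1, 5.88% against 1.07%. Such matches describe the letters of these windows and are no evidence of binding.

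With doxycycline, most nucleotide synthesis genes read slightly lower, but none passed the test over both sets of arrays. The comparison asks which genes differ with doxycycline, and it cannot credit a difference to the fusion. Differences are Dox(+) minus Dox(-) in log2(signal + 16) from a limma fit that holds the array set as a block. The test is two-sided, and a gene passed at a p under 0.05 after Benjamini-Hochberg adjustment over all 18193 genes. Of the 36 genes 0 rose and 0 fell, where 0.148% of all genes rose and 0.0495% fell (0.198% in all). At an unadjusted limma p under 0.05 there were 15 of 36, all lower in Dox(+), against 11.1% of all genes in either direction. Without the block, limma called 0 of the 36, and 0 of them had an unadjusted p under 0.05, against 2.55% of all genes. In that fit the difference between the sets counts as scatter, and the SE of Rrm2 was 0.75, against 0.08 with the block. These counts without the block therefore do not bear on doxycycline. The median difference of the 36 was -0.16, with a range of -0.58 to 0.16 and 28 of 36 negative. Over all genes the median was 0.00 and 49.2% were negative. In no gene of the group did the 3 Dox(+) arrays lie wholly below or above the 3 Dox(-) arrays, where 3.03% and 3.84% of all genes did so. Each group holds arrays of both sets. No such gap can arise where all EA20 arrays lie on the same side of both EA15 arrays. That held in 30 of the 36 genes (EA20 below) and in 4 (EA20 above), against 21.5% and 24.6% of all genes. The count of 0 genes with such a gap therefore cannot be read as a doxycycline result.

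**Figure D1:**
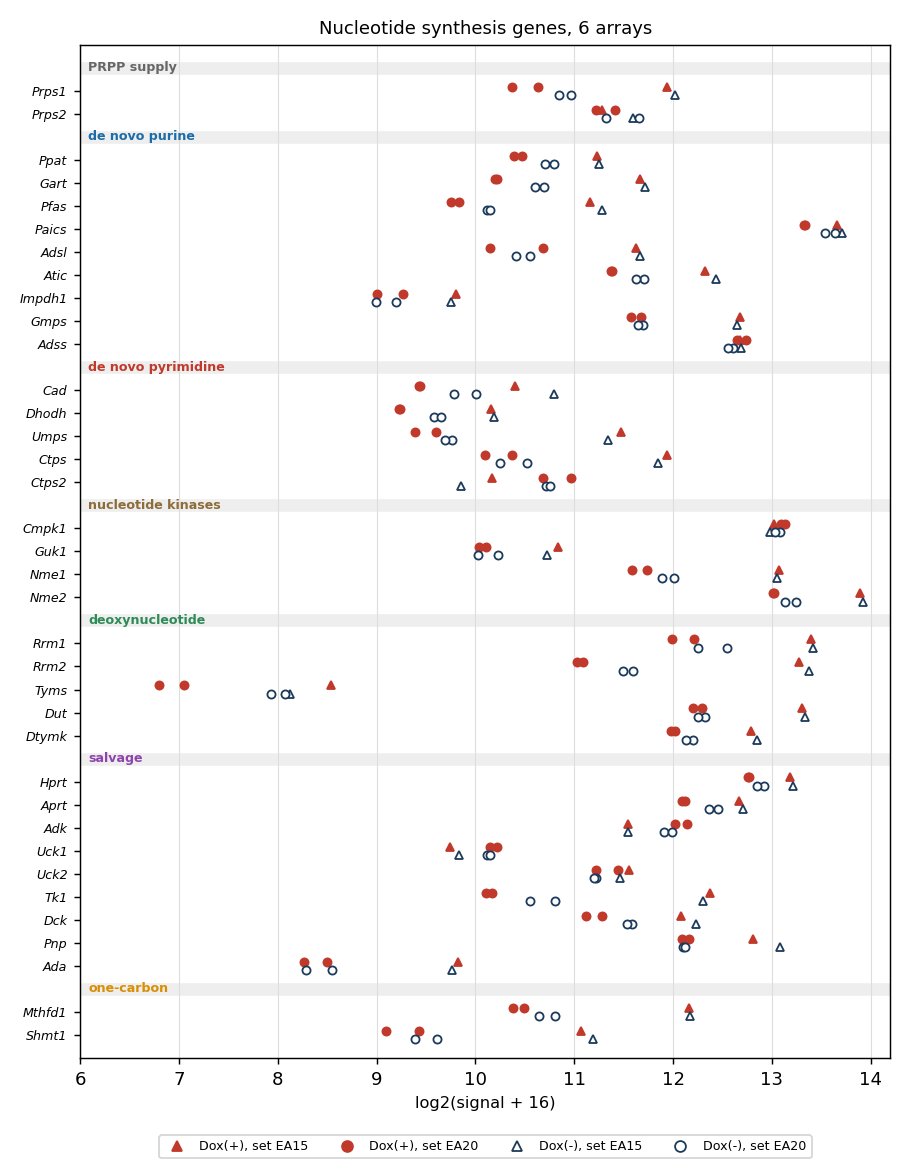
Signal of 36 nucleotide synthesis genes on each array, as log2(signal + 16) on the horizontal axis. Red symbols are Dox(+) arrays and open symbols Dox(-) arrays, with circles for set EA20 and triangles for set EA15. In most genes the EA15 triangles lie to the right of the EA20 circles, and within EA20 the red circles lie left of the open ones in 20 of 36 genes. Levels of different genes are not comparable.

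The values of each set are given apart. In set EA20, 28 of 36 genes were negative with a median of -0.20, and in 20 genes both Dox(+) arrays read below both Dox(-) arrays, against 20.9% of all genes. In 3 genes (Adss, Adk and Cmpk1) both read above, against 21.6% of all genes. In set EA15, where 1 array of each group gives a ratio without a test, 24 of 36 were negative with a median of -0.03. The median over all genes was 0.00 in set EA20 and 0.02 in set EA15. Of all genes, 50.2% were negative in set EA20 and 47.4% in set EA15. Both sets were negative in 20 of the 36 genes, and in 4678 of all 18193 genes. A limma test of the difference of the doxycycline effect between the sets passed for 0 of 36 genes and for 0% of all genes. At an unadjusted p under 0.05 it held 7 of 36 (Tyms, Tk1, Gart, Rrm2, Pnp, Dhodh and Ppat), against 6.73% of all genes.

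**Figure D2:**
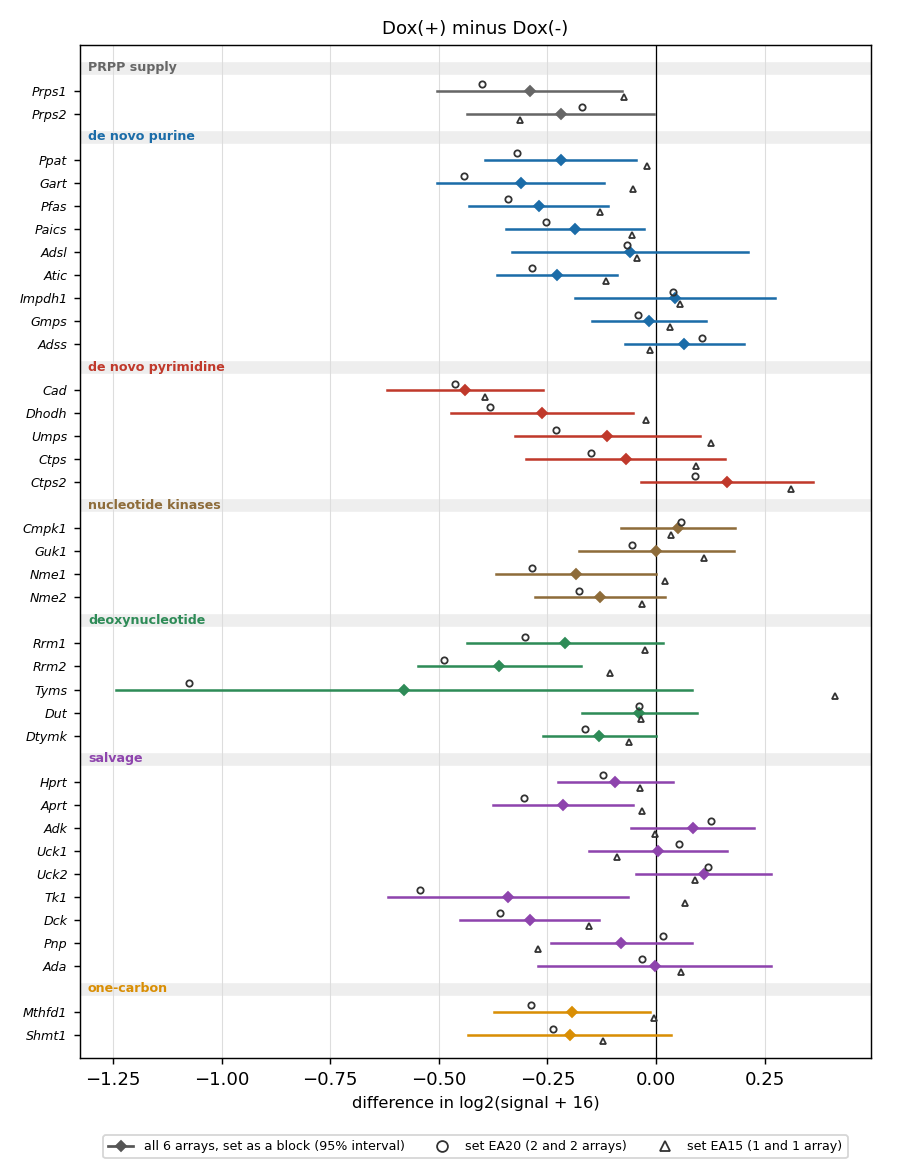
Difference of Dox(+) minus Dox(-) in log2(signal + 16) for each nucleotide synthesis gene, by step. Diamonds with bars are the limma estimates over all 6 arrays with the set as a block and their 95% intervals, circles the value in set EA20 and triangles that in set EA15. Most circles lie left of 0, while most triangles lie near it, and Cad is at -0.44 with both sets on the same side.

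PRPP is the activated sugar on which purines are built and with which bases are salvaged. Its synthetase gene Prps1 read 3921, 1577 and 1310 in Dox(+) arrays (EA15 first, then both of EA20), against 4125, 1985 and 1822 in Dox(-) arrays in the same order. Within EA20 the groups did not overlap, while the EA15 arrays were close to each other. The difference was -0.29 (SE 0.09, limma adjusted p 0.28). The second synthetase gene, Prps2, read 2469, 2706 and 2371 in Dox(+) and 3073, 2534 and 3215 in Dox(-) arrays, a difference of -0.22 (SE 0.10, limma adjusted p 0.44). Its EA20 groups overlapped.

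Among purine genes, the 6 genes of the route from PRPP to IMP were all negative in both sets with their chosen probe sets. Their medians were -0.30 in EA20 and -0.05 in EA15. Not all their further probe sets were negative in EA15, where Gart 1424436_at was at 0.09 and Paics 1423565_at at 0.02. In EA20, Gart 1424435_a_at was at -0.01. Ppat encodes the amidotransferase that commits PRPP to purines. Its signals were 2392, 1401 and 1327 in Dox(+) against 2425, 1761 and 1652 in Dox(-) arrays, a difference of -0.22 (SE 0.08, limma adjusted p 0.33). The EA20 groups were apart, and the EA15 pair was nearly equal at a ratio of 0.987. Gart, whose product carries 3 activities of the middle of the route, read 3230, 1174 and 1157 in Dox(+) and 3349, 1642 and 1537 in Dox(-) arrays. The difference of Gart was -0.31 (SE 0.09, limma adjusted p 0.22), and -0.44 in EA20 alone (limma adjusted p 0.067). Pfas, the amidotransferase of a later step, was the purine gene with the smallest p. Pfas read 2265, 896 and 847 in Dox(+) against 2476, 1095 and 1121 in Dox(-) arrays. The level of Pfas in Dox(+) was 0.829 of that in Dox(-) (95% interval 0.742 to 0.927, limma adjusted p 0.21). Atic, which completes the ring, read 5094, 2661 and 2636 in Dox(+) and 5516, 3321 and 3145 in Dox(-) arrays, a ratio of 0.853 (95% interval 0.776 to 0.939, limma adjusted p 0.21). As in the others, the EA20 groups of Pfas and Atic did not overlap. Paics, a bifunctional enzyme of the route, was at -0.19 (SE 0.07), and Adsl, the lyase used both before and after IMP, at -0.06 (SE 0.12).

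The genes that lead on from IMP lay nearer to 0. Impdh1, an IMP dehydrogenase on the way to GMP, read 878, 498 and 599 in Dox(+) against 845, 569 and 495 in Dox(-) arrays. Gmps, the GMP synthetase, was at -0.02 (SE 0.06), and Adss, which starts the branch to AMP, at 0.07 (SE 0.06). The 95% intervals of the ratios ran from 0.879 to 1.21 for Impdh1, from 0.902 to 1.08 for Gmps and from 0.952 to 1.15 for Adss. Whether these 3 genes differ from the 6 upstream was not tested.

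Within pyrimidine synthesis the gene of the first enzyme had the smallest p of the whole group. Cad (probe set 1452830_s_at) encodes the protein that carries out the first 3 steps. Cad read 1333, 674 and 678 in Dox(+) arrays, against 1756, 866 and 1014 in Dox(-) arrays, or 895 ± 380 and 1212 ± 477 (SD, n = 3 each, both sets). Each Dox(+) array was below each Dox(-) array of its own set. The Dox(+) level was 0.738 of the Dox(-) level (95% interval 0.651 to 0.836, limma adjusted p 0.085), with 0.726 in EA20 and 0.761 in EA15. With dim genes left out of the fit Cad passed (limma adjusted p 0.039). A further Cad probe set, 1452829_at, was at -0.28 (SE 0.08).

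Dhodh, the mitochondrial dehydrogenase of the next step, read 1128, 586 and 585 in Dox(+) and 1147, 748 and 789 in Dox(-) arrays, a difference of -0.26 (SE 0.09, limma adjusted p 0.33). Umps, which makes UMP, read 2827, 656 and 760 in Dox(+) against 2587, 853 and 811 in Dox(-) arrays, at -0.23 in EA20 and 0.13 in EA15. Thus Dhodh and Umps were lower in Dox(+) in EA20, and Umps was on the other side in EA15 with its chosen probe set. With 1434859_at and 1451445_at, however, Umps was at -0.19 and -0.05 in EA15. The CTP synthetase gene Ctps was at -0.07 (SE 0.10). Its paralog Ctps2 was the most positive gene of the whole group, with 1133, 1628 and 1982 in Dox(+) and 910, 1661 and 1714 in Dox(-) arrays. The difference of Ctps2 was 0.16 (SE 0.09, limma adjusted p 0.55), and the EA20 groups overlapped. The EA20 median of the 5 pyrimidine genes was -0.23, but -0.13 without Dox(+) replicate 2 and -0.33 without Dox(+) replicate 3. That of the route to IMP lay between -0.35 and -0.28 without any 1 array of EA20. The order of purine and pyrimidine synthesis as listed depends on the probe sets. Over both sets their medians were -0.19 and -0.11 with the chosen ones. They were -0.12 and -0.21 with probe sets averaged per gene, and -0.09 and -0.19 without those ending in _s_at, _x_at or _a_at.

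Nucleotide kinases raise monophosphates to the diphosphate and triphosphate forms. Nme1 and Nme2, neighbouring genes for nucleoside diphosphate kinases, were at -0.18 (SE 0.08) and -0.13 (SE 0.07), with limma adjusted p of 0.45 and 0.53. Nme1 read 8577, 3407 and 3055 in Dox(+) against 8460, 4112 and 3772 in Dox(-) arrays, so that only the EA20 arrays were apart with this probe set. Nme2 read 15208, 8293 and 8218 in Dox(+) against 15545, 9707 and 8988 in Dox(-) arrays, again apart in EA20. Cmpk1, the UMP-CMP kinase, read 8271, 8703 and 8975 in Dox(+) against 8069, 8664 and 8329 in Dox(-) arrays. Guk1, the guanylate kinase, read 1816, 1035 and 1088 in Dox(+) against 1681, 1187 and 1023 in Dox(-) arrays. Over both sets Cmpk1 was at 0.05 (SE 0.06) and Guk1 at 0.00 (SE 0.08).

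Genes of deoxynucleotide synthesis held the only call. Rrm2 encodes the small, S-phase-regulated subunit of ribonucleotide reductase. It read 9884, 2156 and 2072 in Dox(+) arrays, against 10645, 3075 and 2869 in Dox(-) arrays. In set EA20, where 0.302% of all genes rose and 0.11% fell (0.412% in all), Rrm2 fell to 0.713 of the Dox(-) level (95% interval 0.639 to 0.796, limma adjusted p 0.043, n = 2 each), and 0 of the 36 rose. In EA15 the ratio was 0.929, and over both sets Rrm2 did not pass (-0.36, SE 0.08, limma adjusted p 0.15). The EA20 call was lost with median centring, without the mean-variance trend, with a pseudocount of 64 and without any single array of that set. It was also lost when every probe set was tested by itself (limma adjusted p 0.076). The chosen probe set, 1434437_x_at, is of a kind that can read related sequences. It gave -0.36 over both sets, and the other Rrm2 probe sets gave -0.40 and -0.52.

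Rrm1, the large subunit, read 10734, 4040 and 4712 in Dox(+) and 10917, 5955 and 4868 in Dox(-) arrays (-0.21, SE 0.10, limma adjusted p 0.49). Dtymk, the thymidylate kinase, read 7068, 4141 and 4035 in Dox(+) against 7384, 4694 and 4474 in Dox(-) arrays (-0.13, SE 0.06, limma adjusted p 0.45). In both genes the EA20 groups were apart by small margins. Tyms, the thymidylate synthase, was the dimmest gene of the group and had the largest SE of the 36. Its signals were 356, 95.1 and 117 in Dox(+) and 264, 228 and 253 in Dox(-) arrays. Thus it was lower in Dox(+) in EA20 (-1.08, limma adjusted p 0.14) and higher in EA15 (0.41), and the difference over both was -0.58 (SE 0.29). Dut, which removes dUTP, was at -0.04 (SE 0.06).

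Among salvage genes, Dck, Tk1 and Aprt had the smallest p. Dck, the deoxycytidine kinase, read 4320, 2480 and 2205 in Dox(+) against 4806, 3062 and 2945 in Dox(-) arrays. Its ratio was 0.818 (95% interval 0.732 to 0.914, limma adjusted p 0.18), with both sets below 1. Tk1, the cytosolic thymidine kinase of S phase, read 5290, 1136 and 1086 in Dox(+) and 5053, 1775 and 1491 in Dox(-) arrays. Tk1 was at -0.54 in EA20 (limma adjusted p 0.081) and 0.07 in EA15. Aprt, which salvages adenine, read 6502, 4439 and 4335 in Dox(+) against 6654, 5250 and 5598 in Dox(-) arrays (-0.21, SE 0.07, limma adjusted p 0.30).

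The other salvage genes lay between -0.09 and 0.11 over both sets. Uck2, a uridine-cytidine kinase, read 2983, 2375 and 2773 in Dox(+) and 2801, 2376 and 2343 in Dox(-) arrays (0.11, SE 0.07, limma adjusted p 0.61). Hprt, which salvages hypoxanthine and guanine, was at -0.09 (SE 0.06), Adk, the adenosine kinase, at 0.08 (SE 0.06), and Uck1 at 0.00 (SE 0.07). Pnp, the purine nucleoside phosphorylase, read 7155, 4345 and 4570 in Dox(+) against 8642, 4387 and 4423 in Dox(-) arrays, a difference of -0.27 in EA15 and 0.02 in EA20, where the groups overlapped. Ada, the adenosine deaminase, was at 0.00 (SE 0.12). The 7 genes of deoxynucleotide and thymidylate supply (Rrm1, Rrm2, Tyms, Dut, Dtymk, Tk1 and Dck) had a median of -0.36 in EA20 (-0.45 to -0.33 without any 1 array) and -0.03 in EA15. The 7 genes of base and ribonucleoside salvage had 0.02 in EA20 and -0.03 in EA15. This grouping moves Tk1 and Dck out of salvage. By the steps as listed, the 5 deoxynucleotide genes had an EA20 median of -0.30, and -0.45 to -0.16 without any 1 array. The 9 salvage genes as listed had -0.03, and -0.16 to 0.01 without any 1 array. The members of these groups were chosen with earlier results known, and the groups were not tested against each other.

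**Figure D3:**
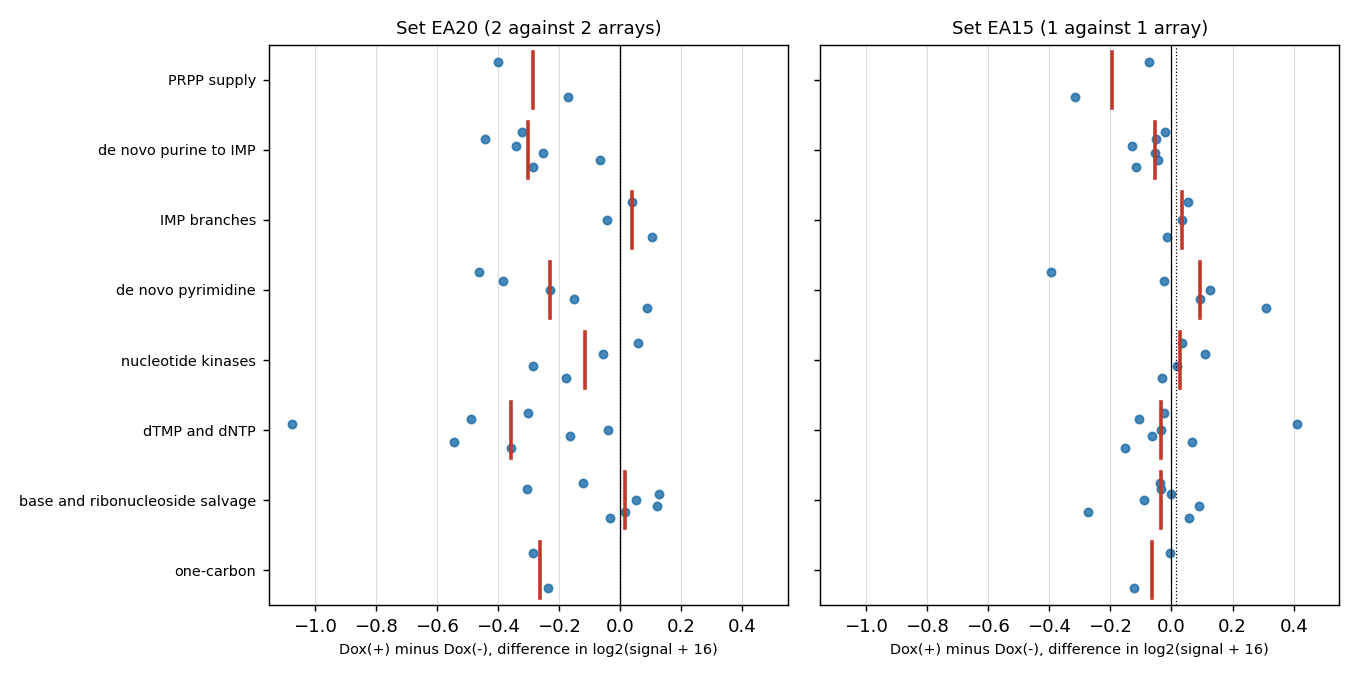
Difference of Dox(+) minus Dox(-) in log2(signal + 16) by step, in set EA20 on the left and set EA15 on the right. Each point is a gene with its chosen probe set, and red lines are medians of a step. The solid line is 0 and the dotted line the median of all genes. The route to IMP, pyrimidine synthesis and the 7 deoxynucleotide and thymidylate genes have medians of -0.30, -0.23 and -0.36 in EA20, and of -0.05, 0.09 and -0.03 in EA15.

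Folate enzymes supply the carbon units for purine rings and thymidylate. Mthfd1, a trifunctional folate enzyme, read 4574, 1319 and 1422 in Dox(+) against 4591, 1771 and 1584 in Dox(-) arrays (-0.19, SE 0.08, limma adjusted p 0.41). Shmt1, the cytosolic serine hydroxymethyltransferase, read 2124, 532 and 672 in Dox(+) and 2314, 653 and 767 in Dox(-) arrays (-0.20, SE 0.10, limma adjusted p 0.53). Mthfd1 was apart only in EA20, and Shmt1 overlapped there with its chosen probe set. With 1422198_a_at, 1425177_at and 1425178_s_at, however, the EA20 groups of Shmt1 were apart, with Dox(+) lower. Among the Shmt1 probe sets, 1422198_a_at was at -0.52 (SE 0.13) and had the largest difference.

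Of 69 other genes of nucleotide and folate metabolism, 58 were measured. With the block 1 of them rose and 0 fell, by limma over all genes, where 0.148% of all genes rose and 0.0495% fell. At an unadjusted limma p under 0.05 there were 13 of 58 (22.4%), 11 of them lower in Dox(+), against 11.1% of all genes. The gene that rose was Gda, guanine deaminase, which turns guanine into xanthine and so removes it from salvage. Gda (probe set 1435748_at) read 776, 3736 and 3831 in Dox(+) arrays, against 603, 2798 and 2792 in Dox(-) arrays. Its level was 1.33-fold (95% interval 1.21 to 1.45, limma adjusted p 0.034) that of Dox(-), with the same direction in both sets. Medians over both sets were -0.14 for 15 further genes of folate and serine metabolism, 0.04 for 11 further kinases and phosphate transfer genes, -0.07 for 6 genes that control or clean the dNTP pool, -0.03 for 20 breakdown genes and -0.07 for 6 transporters.

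A much larger difference separated the array sets, whatever the treatment. With doxycycline as a term, 29 of the 36 genes were lower and 3 higher in EA20 than in EA15 (limma adjusted p under 0.05), where 16.2% of all genes were lower and 17.3% higher (33.5% in all). At an unadjusted p under 0.05 there were 33 of 36, against 39.7% of all genes. The median of the 36 was -0.84, with a range of -2.03 to 0.77, against 0.04 over all genes. In 30 of the 36 genes all 4 EA20 arrays read below both EA15 arrays, where 21.5% of all genes did so. In 4 they read above, where 24.6% of all genes did so. With median centring, which moved the median of all genes to -0.14, 30 of the 36 were lower and 2 higher, and over all genes 2275 were higher and 3861 lower, compared with 3139 and 2953 as deposited. Relative to the median of all genes, the median of the 36 was -0.88 as deposited and -0.78 with quantile normalization.

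Rrm2 had the largest difference, at 0.245 of the EA15 level (95% interval 0.214 to 0.282, limma adjusted p 4.9e-07). Its 4 EA20 signals lay between 2072 and 3075, against 9884 and 10645 in EA15. Tk1 followed at 0.262 (95% interval 0.214 to 0.321), Umps at 0.288 (0.246 to 0.336) and Shmt1 at 0.299 (0.251 to 0.354). With these probe sets the genes were 3.35 to 4.07 times as bright in EA15. Other probe sets of Umps gave smaller differences in log2, at -0.64 (1434859_at) and -0.31 (1451445_at), against -1.80 for the chosen one. Those of Shmt1 ran from -2.30 (1422198_a_at) to -0.92 (1425178_s_at), against -1.74. By step, the medians in log2 were -1.67 for the folate genes, -1.05 for deoxynucleotide genes and -1.03 for the route to IMP. Pyrimidine synthesis was at -0.93, nucleotide kinases at -0.75, the IMP branches at -0.66 and PRPP supply at -0.65. Salvage as listed was at -0.43, and base and ribonucleoside salvage at -0.37. This order depends on the probe sets. Without those ending in _s_at, _x_at or _a_at, salvage as listed was at -0.95, purine synthesis at -0.88 and deoxynucleotide genes at -0.87. Pyrimidine synthesis was then at -0.63 and nucleotide kinases at -0.30.

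Some paralogs had different values in this contrast. Ctps was at 0.333 and Ctps2 at 1.70 of the EA15 level, and Prps1 was at 0.413 while Prps2 was at 0.976 (95% interval 0.833 to 1.14). The value of Prps2 depends on the probe set. In log2, its chosen one was at -0.03, 1420637_at at -0.88 and 1420638_at at 0.25. The genes higher in EA20 were Ctps2, Adk (1.38, 95% interval 1.24 to 1.53) and Uck1 (1.30, 95% interval 1.15 to 1.46). Those that did not pass were Prps2, Adss, Cmpk1 and Tyms. Among the other genes of the pathway, 21 of 58 (36.2%) were lower and 14 (24.1%) higher, against 16.2% and 17.3% of all genes. Chosen after their values were seen, Mthfd2, of mitochondrial folate metabolism, was at 0.175 and the AMP deaminase gene Ampd3 at 4.01 of the EA15 level. Markers of the line also differed between the sets: Csf2rb read 20153 to 22447 in EA20 and 8398 and 9119 in EA15, and Ptprc read 15838 to 17687 in EA20 and 7450 and 8061 in EA15. Their part in the differences of the nucleotide genes was not tested. The array values do not tell fewer transcripts per cell from a changed mix of cells. Since the labels do not say what the codes mark, technical and biological differences between the sets cannot be told apart.

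**Figure D4:**
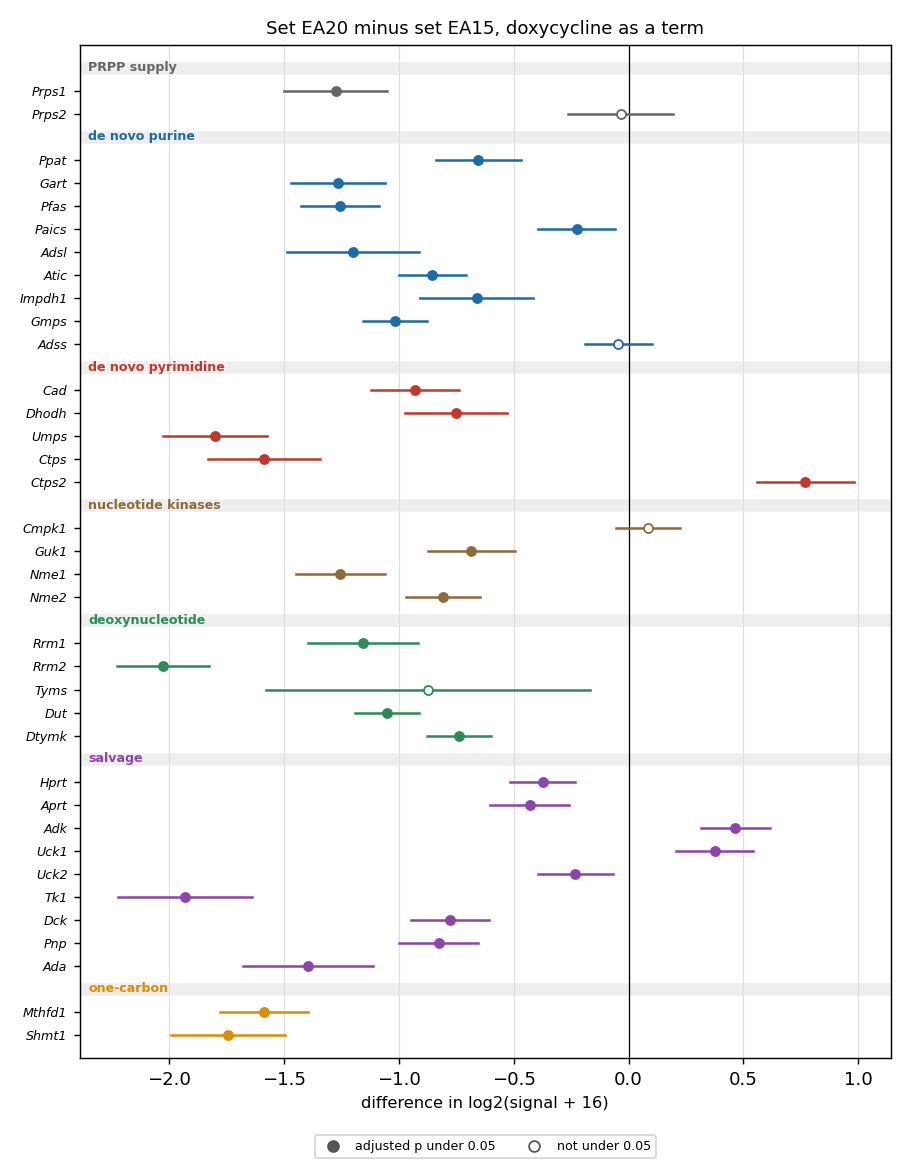
Difference of set EA20 minus set EA15 in log2(signal + 16) for each nucleotide synthesis gene, with doxycycline as a term. Points are limma estimates, bars their 95% intervals, and filled points passed at an adjusted p under 0.05. Of 36 genes, 29 lie left of 0 with filled points, from Rrm2 at -2.03, and Ctps2, Adk and Uck1 lie right of 0.

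Of the 36 genes, 20 had several probe sets with a mean signal of at least 100 (55 probe sets). All probe sets of a gene had the same sign for doxycycline in 18 of the 20 genes over both sets and in 18 in EA20, but in 11 in EA15, and for EA20 against EA15 in 16. Adk, which read above in EA20, was at 0.08 with its chosen probe set and at -0.19 (SE 0.11) with 1416319_at over both sets. The second Nme1 probe set, 1435277_x_at, read 10792 in Dox(+) against 5369 in Dox(-) in EA15, while the chosen one was nearly equal there. Over both sets 1435277_x_at was at 0.28 (SE 0.23), against -0.18 for the chosen one, and its EA20 groups overlapped. Umps probe set 1434859_at was at -0.31 (SE 0.10), against -0.11 for the chosen one. For Uck2, 1448604_at was at -0.95 and 1457980_x_at at 0.49 in log2 between EA20 and EA15, so the direction of Uck2 between the sets depends on the probe set. Paics likewise was at -0.23 with its chosen probe set and at 0.63 with 1436298_x_at.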

How the data were processed

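The authors deposited linear signal intensities, one per probe set and array, from 1-colour arrays of total RNA. Per the submitters' processing notes they used Affymetrix Expression Console, with algorithm and version not stated. In the values, every array has a mean of 500 once 2% is trimmed at each end, so differences in total mRNA are not visible. Detection calls were not used, and the number of arrays limits precision.

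Of 45101 probe sets, 34945 had 1 gene symbol in the platform annotation, giving 18193 genes, each represented by its brightest probe set (mean log2 signal). Values were taken as log2(signal + 16), which understates changes of dim genes. No filter was applied, and all 36 genes lay above the 40th percentile of mean signal. limma 3.58.1 (R 4.3.3) was fitted with a mean-variance trend, with terms for doxycycline and array set, with their interaction, and for set EA20 alone. Tests were two-sided and adjusted by Benjamini-Hochberg over all genes. Only the doxycycline test with the set as a block was tried on simulated data. Replicate numbers follow sample order and pair nothing.

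The member genes, the further pathway genes, their steps, the motifs and the tests were chosen with earlier results of these data known. Values on every array were given for called genes and for up to 4 genes a step by smallest p, and also for Impdh1 and Pnp, chosen after their values were seen. Alternatives were other scalings (quantile, median centring), other eBayes settings (no trend, robust prior), dim genes removed, other probe set rules (mean of all, or none ending in _s_at, _x_at or _a_at), pseudocounts of 1 and 64, a threshold of 0.10, no set term, set EA20 alone, and each array omitted.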

Additional observations from a re-analysis of the deposited data

How the results depend on the processing

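No paired analysis was possible because the labels share a code between the groups only for the 2 arrays of set EA15, which is 1 pair, and give separate codes to the other 4. With the set as a block, 27 genes rose and 9 fell. The counts were 74 and 48 with dim genes left out, 8 and 5 with probe sets averaged per gene, 42 and 20 with a pseudocount of 1, 17 and 5 with a pseudocount of 64, 60 and 35 at an adjusted p under 0.10, 55 and 20 in set EA20 alone, and 0 and 0 without the trend or without a set term (464 genes had an unadjusted p under 0.05 without it, 0 of them among the 36 genes). Leaving out 1 array gave 0 to 49 higher and 0 to 20 lower, with 0 of each without Dox(-) replicate 3 or Dox(+) replicate 2. Among the 36 genes 0 rose in any of these. None fell, except 1, Cad, with dim genes left out or at 0.10, and 1, Rrm2, in set EA20 alone or without either EA15 array. The median of the 36 genes lay between -0.20 and -0.11 without 1 array. In set EA20 alone, the 55 higher and 20 lower genes became 40 and 9 with median centring, 20 and 3 with a pseudocount of 64, 0 and 0 without the trend, and 0 to 5 and 0 to 1 without 1 array (an alternative chosen after the data were seen). The fall of Rrm2 was called with quantile normalization (limma adjusted p 0.036), but 0 of the 36 were called in the other settings (0.071 to 0.45 for Rrm2). The cause was not tested. Between the sets, the counts of 29 lower and 3 higher stayed at 22 to 30 and 2 to 4, with the direction of Paics turned to 0.0012 by averaging its probe sets. The lowest of these, 22 and 2, came from 30 genes, since leaving out shared probe sets removed 6.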
